A study of Homo sapiens with 9 samples.

Results

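YY2, its paralog YY1 and its host gene MBTPS2 were followed in A549 cells after silencing of REV1. These 3 genes were taken by symbol from the 18143 genes listed for each library, and all 3 had an FPKM of at least 0.1 in every library. YY2 was selected on its FPKM, because it fell after both siRNAs in these same libraries, so its values against scramble are a description and carry no test. A549 is an established line of human lung adenocarcinoma cells. Transfection lasted 48 h, either with a scramble siRNA (the group Scramble) or with SiREV1#1 or SiREV1#2, which both target REV1, a polymerase of translesion DNA synthesis. Each group had 3 replicates, so mRNA was sequenced in 9 libraries. All groups were transfected A549 cells and none was left untransfected, and nothing in the labels says whether replicates were separate cultures on separate days, so p-values measure the spread between these samples, which may be technical.

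YY1 is a zinc finger transcription factor made in nearly every tissue, which activates or represses its target genes depending on the proteins it binds, among them histone deacetylases, Polycomb proteins and the INO80 chromatin remodeller. YY2 arose when a YY1 transcript was copied back into the genome, and its copy landed in an intron of MBTPS2. YY2 therefore has no introns of its own, and its zinc fingers remain close to those of YY1. MBTPS2 encodes the site-2 protease, a membrane-embedded enzyme of the Golgi that releases the transcription factors SREBP, ATF6 and CREB3 from their membrane anchors and so controls sterol synthesis and the response to unfolded proteins. Because YY2 sits on the same strand as MBTPS2, its fall could be read against the host gene, against the paralog, or against neither.

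In GENCODE release 29 on GRCh38, YY2 covers chrX:21855987-21858727 on the plus strand as 1 exon of 2741 bases, whose coding part runs from base 499 to base 1617 of the transcript YY2-201. It lies within intron 5 of the transcript MBTPS2-202, from 21853504 to 21868466 on chromosome X. MBTPS2 itself spans 21839636 to 21885424 with 11 exons. YY1 lies elsewhere, on chromosome 14 from 100238298 to 100282792, with 5 exons. The deposited values carry no coordinates, and the labels name the build hg38.

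The paralogs share most of their coding sequence. A local alignment joined 961 bases, of which 75.5% were identical, and the longest identical run was 24 bases. The stretch of 60 coding bases with the most identity is shown here because it marks how close reads from both genes can be. It lies in exon 4 of YY1 and in the single exon of YY2, 56 of its bases are identical, and capitals mark the 4 that differ.
YY2, chrX:21857292-21857351, plus strand: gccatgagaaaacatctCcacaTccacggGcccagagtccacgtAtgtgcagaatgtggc
YY1, chr14:100276520-100276579, plus strand: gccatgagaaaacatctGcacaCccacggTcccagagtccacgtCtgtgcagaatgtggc

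The host gene overlaps YY2 in a way the paralog does not. A processed transcript of MBTPS2, MBTPS2-203, ends in an exon 6 at 21856501 to 21857593, which covers bases 515 to 1607 of YY2-201 and so 1093 of its 1119 coding bases. Of the 2692 words of 50 bases in YY2-201, 1046 (38.9%) also occur in an MBTPS2 transcript, whereas 0 of 4379 words of MBTPS2-202 occur in any other gene. Reads from the shared exon come from the same strand and cannot be told apart by sequence, so the YY2 value is uncertain to the extent that MBTPS2-203 is made. The gene annotation behind the deposited values is not given in the sources used here. Deposited read counts of YY2 and of MBTPS2 were whole numbers in 8 of 8 libraries, and those of YY1 in 0 of 8. Of the 3 genes, YY1 alone thus carried fractions of reads. Over all genes, 57.4% of count values were whole.

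The primers that the study lists for YY2 fall in this shared exon. They are shown because they bear on what a PCR of YY2 would read.
YY2 forward primer: gaccaggaaatgcttatgtt
YY2 reverse primer: gtgctcgtcttcaatgctat
The pair brackets 123 bases at chrX:21856707-21856829, bases 721 to 843 of YY2-201 and bases 976 to 1098 of MBTPS2-203. The study reports that YY2 mRNA by PCR changed as in its sequencing after silencing of REV1. It also measured the mRNA of these genes by PCR after the REV1 inhibitor JH-RE-06, and its text does not state the result for YY2. It reports no significant change of YY2 protein after silencing.

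The target sites of the siRNAs in REV1 are shown with the word that pairs with bases 2 to 8 of each guide in capitals, beside the stretches of YY2 that hold the same word. The SiREV1#1 site is in exon 18 of 23 of REV1, on the minus strand, and the SiREV1#2 site spans exons 4 and 5.
REV1 site of SiREV1#1, chr2:99404474-99404492: gaacagtgacgCAGGAATa
YY2 3′ UTR, chrX:21858520-21858538: tggagggagatCAGGAATg
YY2 3′ UTR, chrX:21858668-21858686: tcgtttgagctCAGGAATt
REV1 site of SiREV1#2, exons 4 and 5: gcatcaaagctGGACGACt
YY2 coding, chrX:21857368-21857386: gctcaaagctgaGACGACa
The 7-base word CAGGAAT, searched on the transcript strand only, occurred 2 times in the 3′ UTR of YY2 and 0 times in MBTPS2-202 and YY1-201. Of 18843 3′ UTRs, 11.9% hold it at least 1 time and 1.95% at least 2 times. The 6-base part AGGAAT occurred 3 times in the 3′ UTR of YY2, those 2 included, and 1 time in the coding part of YY1. It is held by 32.7% of 3′ UTRs and 36.7% of coding sequences. The word GGACGAC of SiREV1#2 occurred 0 times in YY2-201 and in MBTPS2-202, and 1 time in the coding part of YY1, where 9.18% of coding sequences hold it. Its 6-base part GACGAC, in capitals in the last line, occurred 1 time in the coding part of YY2 and 7 times in that of YY1, and 19.8% of 19483 coding sequences hold it.

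Around that 6-base word, YY2 is close to the whole SiREV1#2 site. The 18 bases from 1382 to 1399 of YY2-201 hold 17 of the 19 REV1 bases in order, with 2 missing and 1 extra base, which is 3 edits. Of 19482 transcripts, 66 (0.339%) are at least this close with gaps allowed, and 2 of them are closer. MBTPS2-202 and YY1-201 are at 5 edits, as close as 46.0% of transcripts. For the SiREV1#1 site YY2 is at 5 edits, as close as 45.0%. The genes at 3 edits or fewer from the SiREV1#2 site, with YY2 left out, were looked at in the same way. Of 48 tested, 4 were called lower and 0 higher after SiREV1#2, with a median log2 change of -0.11 against -0.02 over all genes, and 5 were lower and 1 higher after SiREV1#1. Of all genes, 5.62% were called lower and 2.43% higher after SiREV1#2, and 10.1% and 4.8% after SiREV1#1. With 48 genes the counts are too small to tell a shift from these shares, so nothing is read from them. These matches are descriptions of letters, and a pairing of either siRNA with YY2 was not tested.

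**Figure D1:**
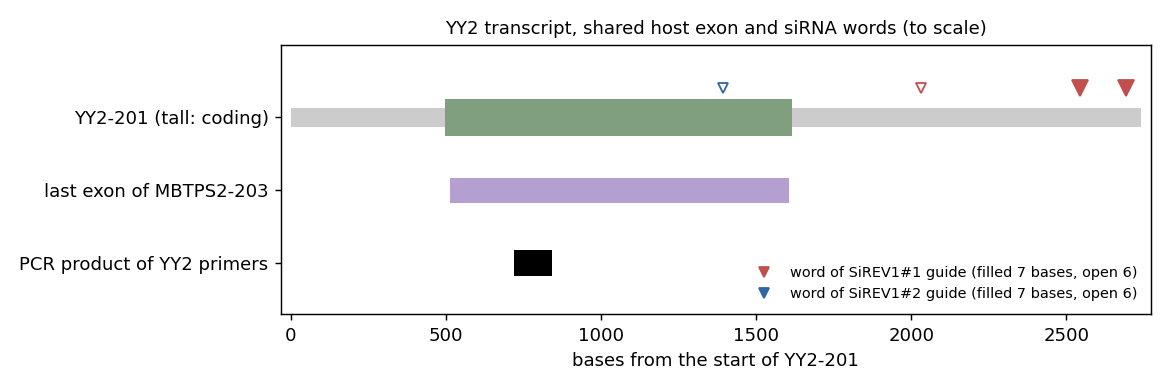
Map of the YY2-201 transcript to scale, in bases from its start, with the coding part drawn tall. The last exon of MBTPS2-203 covers bases 515 to 1607, the PCR product of the YY2 primers covers 721 to 843, and triangles mark words that pair with the siRNA guides, of which the filled 7-base words of SiREV1#1 stand near the 3′ end.

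REV1, the siRNA target, fell in every silenced library. Its mean FPKM was 7.86 ± 0.606 (SD, n = 3) in Scramble, 2.96 ± 0.382 in SiREV1#1 and 3.39 ± 0.221 in SiREV1#2. The log2 fold change was -1.38 (SE 0.14, limma adjusted p = 0.000976) and -1.19 (SE 0.14, limma adjusted p = 0.00347). Total counts were between 13059082 and 20166451 in the 8 libraries with usable counts. The first replicate stood apart in every group: between 22.0% and 29.7% of 11429 genes differed over 2-fold between it and the mean of the other replicates, against about 0.14% to 0.149% between the second and the third. Groups were therefore compared within same-numbered replicates. Of the epithelial genes, the keratins KRT8 and KRT18 were at 1372 FPKM or above in all libraries and the aldo-keto reductase AKR1B10 at 954 or above, CDH1 was at 6.32 to 43.8, and KRT19 and EPCAM were low, at 0.1 to 1.34 and 0.73 to 2.38. Of the fibroblast genes, the collagen COL1A2 was listed at 0 in 8 of 9 libraries and DCN in 6 of 9, and COL1A1 was at 0.2 to 1.57. The endothelial genes PECAM1 and VWF did not exceed 0.12 and 0.02 FPKM. Of the lung genes, the surfactant genes SFTPC and SFTPB were at 0.07 to 0.4 and 0.3 to 2.84 FPKM, and of the leukocyte genes PTPRC did not exceed 0.47 and CD14 was at 0.13 to 5.89.

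YY2 had the lowest level of the 3 genes in every library and the lowest ratios to scramble. In Scramble its FPKM was 1.82, 2.45 and 2.99 in replicates 1, 2 and 3, in SiREV1#1 it was 0.53, 0.84 and 1.19, and in SiREV1#2 it was 0.72, 0.52 and 0.38. Every silenced library was below every scramble library. These values rest on 92 to 165 reads in Scramble, 19 to 64 in SiREV1#1, and 29 and 36 in SiREV1#2 replicates 2 and 1. Within replicates the log2 ratio of YY2 was -1.61, -1.44 and -1.26 for SiREV1#1, a mean of -1.44 or 2.71-fold lower, and -1.23, -2.04 and -2.69 for SiREV1#2, a mean of -1.98 or 3.96-fold lower. All ratios are on the log2(FPKM + 0.1) scale, which understates the change of a low gene. Ranked by log2 change among 14952 genes, YY2 was the 130th lowest after SiREV1#1 and the 35th lowest after SiREV1#2. Bulk RNA cannot tell fewer YY2-expressing cells from less YY2 RNA per cell. The siRNAs differed in YY2 by 0.55 on the log2 scale (SiREV1#1 minus SiREV1#2), with replicate values of -0.38, 0.60 and 1.43, so replicate 1 had the lower value after SiREV1#1 and the other two after SiREV1#2. This difference was 0.15 without SiREV1#2 replicate 3, 0.29 without SiREV1#1 replicate 3, 0.82 without SiREV1#1 replicate 1 and 0.97 without SiREV1#2 replicate 1, and on counts with the block it was 0.26 by edgeR and 0.23 by DESeq2.

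No fall of MBTPS2 was detected beside that of the gene inside it. Its FPKM was 17.6, 17.58 and 18.47 in Scramble, 14.58, 20.43 and 19.97 in SiREV1#1, and 20.29, 25.47 and 23.39 in SiREV1#2. The SiREV1#1 values lay on both sides of the scramble values, and all SiREV1#2 values lay above them. After SiREV1#1 the log2 fold change was 0.02 (SE 0.12, 95% interval -0.26 to 0.30, limma adjusted p = 0.938). After SiREV1#2 it was 0.36 (95% interval 0.08 to 0.64), higher in 3 of 3 replicates, with an unadjusted p of 0.018 and a limma adjusted p of 0.113. Ranges that do not overlap, with the siRNA higher, were found for 5.87% of genes after SiREV1#2. An exact two-sided permutation test of 3 against 3 libraries ignores the pairing of replicates and cannot go below p = 0.1. That was the value for MBTPS2 after SiREV1#2, and p was 1 after SiREV1#1. In the direct comparison of the siRNAs, the log2 difference of MBTPS2 was -0.34 (SiREV1#1 minus SiREV1#2, 95% interval -0.62 to -0.06, limma adjusted p = 0.0693), lower in 3 of 3 replicates.

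YY1 fell after SiREV1#1, by far less than the description of YY2 gives, and its lower values after SiREV1#2 did not pass the test. Its FPKM was 26.67, 29.46 and 29.32 in Scramble, 18.26, 23.16 and 23.01 in SiREV1#1, and 19.48, 26.66 and 26.17 in SiREV1#2. Every silenced library lay below every scramble library, narrowly so for SiREV1#2, where the highest value was 26.66 and the lowest scramble value 26.67. The log2 fold change after SiREV1#1 was -0.41 (SE 0.11, 95% interval -0.66 to -0.17, limma adjusted p = 0.0361), 1.33-fold lower and lower in 3 of 3 replicates. This call was lost without the replicate block (adjusted p = 0.457), with edgeR on counts (adjusted p = 0.11) and with DESeq2 on counts (adjusted p = 0.105), and it held in 2 of 9 fits that left out 1 library. After SiREV1#2 the log2 fold change was -0.25 (SE 0.11, 95% interval -0.50 to -0.01, limma adjusted p = 0.185), lower in 3 of 3 replicates. The siRNAs differed by -0.16 (limma adjusted p = 0.295). The exact permutation p was 0.1 for each siRNA, the smallest possible, and 0.5 between them. Ranges that do not overlap, with the siRNA lower, were found for 12.2% of genes after SiREV1#1 and 8.91% after SiREV1#2.

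Of the 2 genes tested, MBTPS2 and YY1, 1 was called after SiREV1#1, where 14.9% of all 14952 genes were called, 4.8% higher and 10.1% lower. After SiREV1#2, 0 of 2 were called by limma, against 8.06% of all genes (2.43% higher and 5.62% lower), both had an unadjusted p under 0.05, and edgeR and DESeq2 with the block also called 0. Between the siRNAs 0 of 2 were called by limma, against 29.3% of all genes (13% higher and 16.3% lower), with an unadjusted p of 0.0231 for MBTPS2 and 0.168 for YY1, and edgeR and DESeq2 with the block also called 0. The comparisons of SiREV1#1 and of SiREV1#2 use the same scramble libraries, so they are not independent of each other.

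**Figure D2:**
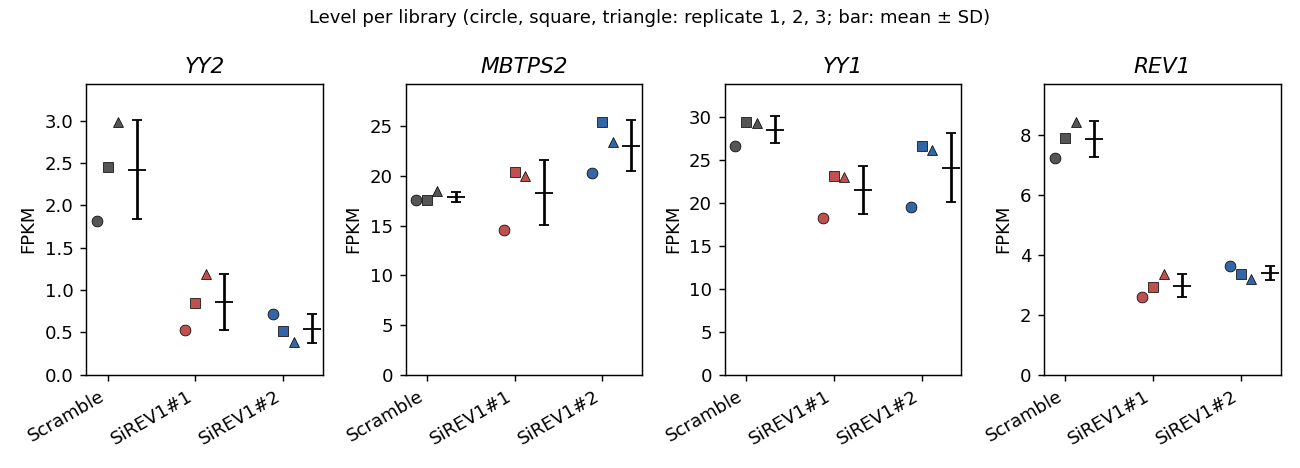
FPKM of YY2, MBTPS2, YY1 and the siRNA target REV1 in each of the 9 libraries, with circles, squares and triangles for replicates 1, 2 and 3 and bars for the mean ± SD of a group. The silenced libraries of YY2 sit between 0.38 and 1.19 FPKM, below the scramble libraries at 1.82 to 2.99, whereas MBTPS2 overlaps scramble after SiREV1#1 and lies above it after SiREV1#2.

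Set against its host, YY2 was lower in every pair. YY2 was 10.3%, 13.9% and 16.2% of MBTPS2 FPKM in the scramble replicates, 3.64%, 4.11% and 5.96% after SiREV1#1, and 3.55%, 2.04% and 1.62% after SiREV1#2. FPKM is per length, so these levels can be compared between genes. The log2 change of YY2 relative to MBTPS2 was -1.34, -1.66 and -1.37 for SiREV1#1 (mean -1.46) and -1.43, -2.57 and -3.03 for SiREV1#2 (mean -2.34). Relative to the host gene the change of YY2 was thus about as large as on its own after SiREV1#1 and larger after SiREV1#2. Set against its paralog, YY2 was 8.45% ± 1.69 of YY1 FPKM in Scramble (SD, n = 3), 3.90% ± 1.16 after SiREV1#1 and 2.37% ± 1.18 after SiREV1#2. Relative to YY1 the mean log2 change of YY2 was -1.02 and -1.73, in both cases lower in 3 of 3 replicates. The mean log2 values were -0.41 and -0.25 for YY1 itself, beside -1.44 and -1.98 for YY2. These ratios contain the values that chose YY2 and were not tested.

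**Figure D3:**
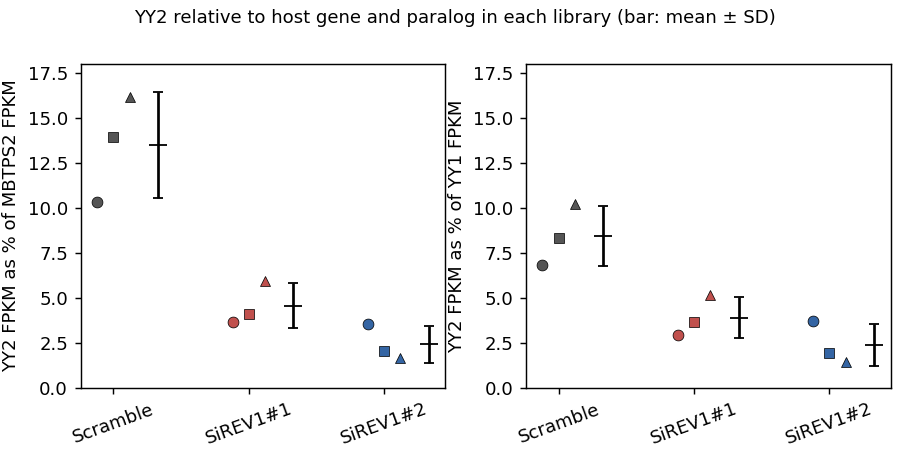
YY2 FPKM as a percentage of MBTPS2 FPKM and of YY1 FPKM in each library, with points for replicates and bars for the mean ± SD. Scramble libraries lie between 10.3% and 16.2% of MBTPS2, and silenced libraries between 1.62% and 5.96%.

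**Figure D4:**
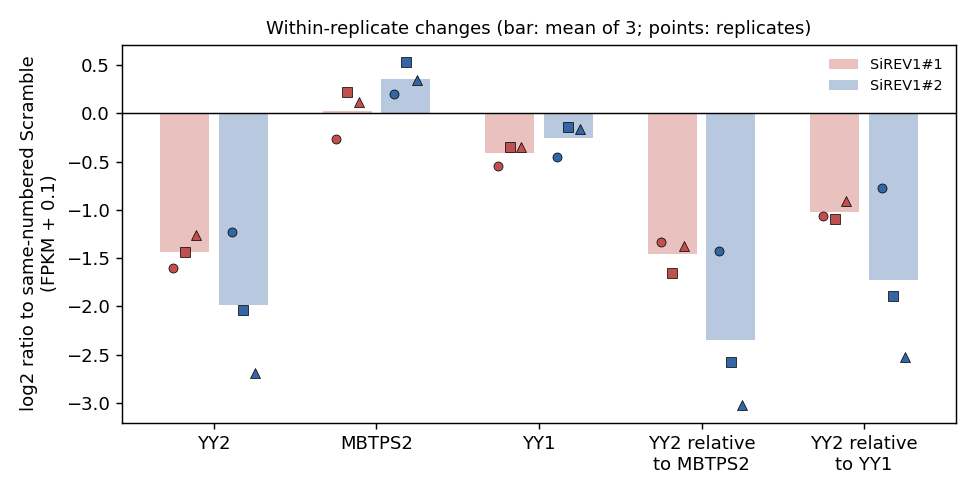
Log2 ratio of each siRNA library to the same-numbered scramble library on the log2(FPKM + 0.1) scale, for the genes and for YY2 relative to the others, with bars for the mean of 3 replicates and points for each. YY2 is below 0 in all 6 pairs, YY1 is slightly below 0 in all 6, and MBTPS2 is below 0 in 1 of 3 pairs for SiREV1#1 and in 0 of 3 for SiREV1#2.

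MBTPS2 and YY1 also came closer to each other in level, which was not tested. The ratio of MBTPS2 to YY1 FPKM was 0.629 ± 0.0316 in Scramble (SD, n = 3), 0.849 ± 0.0448 after SiREV1#1 and 0.964 ± 0.0742 after SiREV1#2, and MBTPS2 exceeded YY1 in 1 library, SiREV1#2 replicate 1, with a ratio of 1.04. The order of levels was therefore YY1, MBTPS2 and YY2 in 8 of 9 libraries. Levels of YY1 and MBTPS2 did not overlap in Scramble, where the lowest YY1 value was 26.67 and the highest MBTPS2 value 18.47, and did overlap after each siRNA.

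The difference between YY2 and MBTPS2 was also set beside that of other nested genes. This comparison was chosen after the values were seen. YY2 was selected for its fall in these libraries, so a low place of YY2 among the pairs follows from that choice. The pairs were protein-coding genes taken by their coordinates, and were not limited to genes inside an intron. Among 95 pairs of a gene lying within another gene on the same strand, with both tested, the nested gene and its host differed by more than 1 on the log2 scale in 10.5% of pairs after SiREV1#1 and in 9.47% after SiREV1#2. The nested gene was as low against its host as YY2 in 3 pairs after SiREV1#1 and in 1 after SiREV1#2, YY2 itself included.

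The pattern over replicates was compared by the Pearson correlation of the 6 within-replicate log2 ratios among 11428 other genes with a mean FPKM over 1. The ratios share the scramble libraries and the shift of the first replicate, and the measure ignores the size of a change. It also takes out the mean of each gene over the 6 ratios. Its sign therefore does not say whether 2 genes fell or rose together against scramble. YY2 and YY1, for example, were both lower in 3 of 3 replicates for each siRNA, whatever their r. For YY2 the 5 most alike were PARN (r = 0.987), TP53INP1 (r = 0.977), MAP4K2 (r = 0.976), PPIL3 (r = 0.976) and SETD3 (r = 0.976). None had mean log2 ratios as low as those of YY2. After SiREV1#1 and SiREV1#2 they were -0.15 and -0.29 for PARN, a poly(A) ribonuclease, and -0.31 and -0.67 for TP53INP1. They were 0.04 and -0.17 for MAP4K2, -0.03 and -0.15 for PPIL3, and 0.07 and -0.08 for SETD3. MBTPS2 was most like OGFRL1, DPM1, CPD, KLHL9 and VPS54 (r of 0.995 or more), and YY1 most like ETF1, USP43, DOP1A, C1GALT1C1 and IBA57 (r of 0.995 or more). Between the genes themselves, r was 0.89 for MBTPS2 with YY1, -0.43 for YY2 with MBTPS2 and -0.72 for YY2 with YY1. An r of 0.89 was common here: among the 11428 genes YY1 had rank 1245 in likeness to MBTPS2, and MBTPS2 had rank 730 in likeness to YY1. In likeness to YY2, MBTPS2 had rank 7941 and YY1 rank 10583.

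The third member of the YY1 family, ZFP42 (also called REX1, a marker of pluripotent cells), was at 0.07 to 0.39 FPKM, and its log2 changes were -0.40 (limma adjusted p = 0.548) and -0.11 (limma adjusted p = 0.908). Among 11 partners of YY1, 0 passed the limma test after either siRNA, 1 and 2 had an unadjusted p under 0.05, and edgeR and DESeq2 with the block also called 0. After SiREV1#1 the lowest was YAF2, which binds YY1 and Polycomb proteins, at -0.45 (limma adjusted p = 0.0508), and the highest YY1AP1 at 0.08. After SiREV1#2 the lowest was the deubiquitinase BAP1 at -0.43 and the highest YY1AP1 at 0.14. Of 14 subunits of the INO80 remodeller, 1 fell after each siRNA and 0 rose, where 10.1% of all genes were called lower after SiREV1#1 and 5.62% after SiREV1#2. The ATPase INO80 had a log2 change of -0.41 after SiREV1#1 (limma adjusted p = 0.0466), and the helicase RUVBL1 fell by 0.53 after SiREV1#2 (limma adjusted p = 0.0461). The largest values that did not pass were ACTR5 at -0.58 after SiREV1#1 and ACTR8 at -0.62 after SiREV1#2, and the highest were MCRS1 at 0.07 and INO80D at 0.34. Neither call was made by edgeR or DESeq2. Median log2 changes were -0.07 and -0.11 for the partners and -0.23 and -0.03 for INO80, against -0.07 and -0.02 over all genes.

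The counts called in this and the following lists are small and stand beside the same shares of all genes, 4.8% called higher and 10.1% lower after SiREV1#1, and 2.43% and 5.62% after SiREV1#2, so nothing is read from them about a list. Genes that act with the MBTPS2 protease gave calls after 1 siRNA at a time. Of 12 tested, SREBF1 and SREBF2, which encode the SREBP factors that MBTPS2 releases, rose after SiREV1#1 by 0.47 (limma adjusted p = 0.0219) and 0.43 (limma adjusted p = 0.0198), and 0 fell. After SiREV1#2, SREBF1 and SREBF2 had values of -0.06 and -0.37, and 1 gene fell, CREB3, a membrane-bound factor cut by the protease, by 1.38 (limma adjusted p = 0.00145). The value of CREB3 after SiREV1#1 was about 0. With the block, edgeR and DESeq2 called 2 and 4 genes of the list after SiREV1#1, and 1 each after SiREV1#2. The lowest after SiREV1#1 was INSIG1, which holds SREBP in the endoplasmic reticulum, at -0.71 (limma adjusted p = 0.0625), and the highest CREB3L3, a low gene at 0.02 to 1.27 FPKM, at 0.72. The highest after SiREV1#2 was ATF6 at 0.30. MBTPS1, which makes the cut before MBTPS2, had values of about 0 and 0.29, neither of which passed. The median of the list after SiREV1#2 was -0.09 against -0.02 over all genes.

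Targets of the released factors were looked at in the same way. Of 10 SREBP targets, 1 fell and 0 rose after each siRNA: IDI1, of isoprenoid synthesis, by 0.66 after SiREV1#1 (limma adjusted p = 0.00527), and ACACA, of fatty acid synthesis, by 0.46 after SiREV1#2 (limma adjusted p = 0.0482), where edgeR and DESeq2 with the block called 0 of the 10. The values of these genes after the other siRNA were 0.07 for IDI1 and 0.32 for ACACA. After SiREV1#1, edgeR and DESeq2 with the block called 2 and 3 of the 10. The lowest values were HMGCS1 at -0.99 after SiREV1#1 and SCD at -0.85 after SiREV1#2, neither of which passed. Of 7 ATF6 targets, SEL1L, of the degradation of misfolded proteins, fell by 0.75 after SiREV1#1 (limma adjusted p = 0.00801), with SYVN1 the highest at 0.38. After SiREV1#2, 0 of 7 passed, 1 had an unadjusted p under 0.05, edgeR called 0 and DESeq2 called 1, and the ends of the list were PDIA4 at -0.48 and HSPA5 at 0.43. Median log2 changes were -0.01 and -0.14 for the SREBP targets and -0.23 and 0.16 for the ATF6 targets. Without the replicate block, 0 genes of these lists passed for either siRNA.

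Genes on either side of MBTPS2 were also measured. Of 4 tested, 0 passed by limma after either siRNA, 3 and 1 had an unadjusted p under 0.05, edgeR called 0 and 0, and DESeq2 called 1 and 0. SMS, the spermine synthase gene beside MBTPS2 and at 76.7 to 105 FPKM, had log2 changes of 0.28 (limma adjusted p = 0.137) and 0.31 (limma adjusted p = 0.129), higher in 3 of 3 replicates each time. PHEX, at 0.16 to 1.21 FPKM, had the highest value after SiREV1#1 at 0.70. SMPX had the lowest after SiREV1#2 at -0.51, but it was at 0 to 0.17 FPKM, with 3 libraries at 0. Of 4 genes beside YY1, 0 passed after SiREV1#1, with 1 unadjusted p under 0.05 and 0 calls by edgeR and DESeq2, and SLC25A29 was the lowest at -0.47. After SiREV1#2, WARS, a tRNA synthetase gene, fell by 0.85 (limma adjusted p = 0.0101) and EVL, of the actin cytoskeleton, by 0.58 (limma adjusted p = 0.0395), where edgeR called 0 and DESeq2 called 1 of the list.

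**Figure D5:**
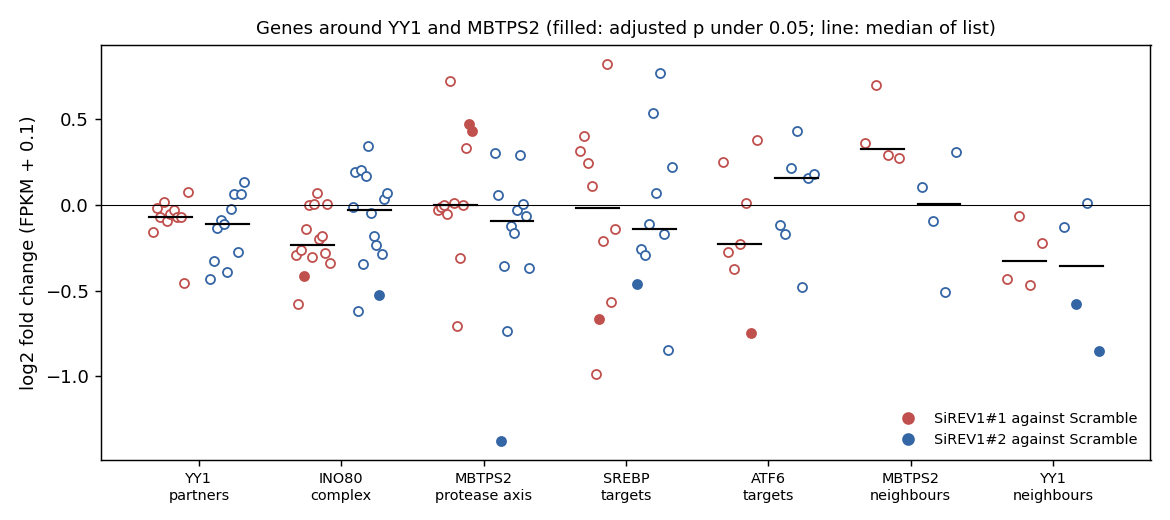
Log2 fold change of each tested gene in 7 lists around YY1 and MBTPS2 for both siRNAs against Scramble, with filled points for a limma adjusted p under 0.05 and lines for the median of a list. Filled points are few and belong to different genes for each siRNA, and CREB3 after SiREV1#2 is the lowest point at -1.38.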

How the data were processed

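RNA-seq of the 9 libraries was made from oligo(dT)-purified mRNA on the BGISEQ-500 platform. Per the file headers, the authors deposited FPKM values, rounded to 2 decimals, for each gene. They also deposited estimated counts of reads for each gene (expected counts, without normalization). The submitters' processing notes name hg38 and StringTie 1.3.3b without a role, and the aligner, counter and gene annotation are not given in the sources used here. The count column of SiREV1#2 replicate 3 was headed as replicate 2 and equalled it at 100% of genes, so 1 column was not used and fits on counts hold 8 libraries.

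FPKM was tested by limma 3.58.1 (limma-trend, R 4.3.3) on log2(FPKM + 0.1), over genes with FPKM of at least 0.1 in 3 or more libraries, with the replicate number as a block and Benjamini-Hochberg adjustment over 14952 genes, called at an adjusted p under 0.05. The deposited FPKM carry no reads, so the counts, rounded to whole numbers, were tested by edgeR 4.0.16 and DESeq2 1.42.0 as alternatives. Others were no block, log2(FPKM + 1), no filter, a mean FPKM over 1, leaving out each library, and replicates 2 and 3 only. Same-numbered libraries deviated together from their group means (r of 0.732 to 0.925 over 11429 genes), so the numbers were taken to pair the samples. The pairing rests on the first replicate: replicate 2 minus replicate 3 gave correlations of 0.135, -0.163 and -0.116 for pairs of groups. FPKM of single genes was also compared with exact permutation tests, which ignore the pairing.

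Gene models, siRNA words and near matches came from GENCODE release 29 transcripts, with 1 transcript for each gene (best APPRIS class, then longest), with Biopython 1.88 and edlib. Primers were read from the study's supplement. The genes, the lists, the fit with a block and the sequence searches were chosen with earlier results of these data known. Genes were named as members, as the lowest and highest of each list and those that passed, or as the 5 most alike in pattern. The highest values among the SREBP targets are not reported here. YY2 rests on 19 to 165 reads in the libraries with usable counts, which limits its precision.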

Additional observations from a re-analysis of the deposited data

How the results depend on the processing

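YY2, YY2 relative to MBTPS2 and YY2 relative to YY1 kept a negative log2 value against Scramble under every alternative run. With log2(FPKM + 1), which shrinks a low gene, YY2 moved to -0.88 for SiREV1#1 and -1.14 for SiREV1#2, its value relative to MBTPS2 to -0.90 and -1.49, and its value relative to YY1 to -0.49 and -0.90. Leaving out 1 library at a time gave, for SiREV1#1, -1.70 to -1.16 for YY2 (lowest without SiREV1#1 replicate 3, highest without SiREV1#1 replicate 1), -1.71 to -1.29 relative to MBTPS2 and -1.28 to -0.76 relative to YY1, and for SiREV1#2 -2.41 to -1.59, -2.77 to -1.98 and -2.22 to -1.31. The YY1 call after SiREV1#1 was lost with no replicate block (-0.41), with edgeR on counts with the replicate block (-0.34), with edgeR with no replicate block (-0.34) and with DESeq2 with the replicate block (-0.33), with adjusted p between 0.0013 and 0.639 over all alternatives. It was also lost in 7 of 9 fits without 1 library, where its value was -0.46 to -0.33, and it held without SiREV1#1 replicate 1 and without SiREV1#2 replicate 1. With replicates 2 and 3 only, MBTPS2 passed after SiREV1#2 (0.44, adjusted p = 0.00111) and between the siRNAs (-0.27), as did YY1 between the siRNAs (-0.19). Without 1 library MBTPS2 was 0.27 to 0.47 after SiREV1#2, passing without SiREV1#1 replicate 1 (adjusted p = 0.0161), and -0.39 to -0.23 between the siRNAs, passing without Scramble replicate 1 (adjusted p = 0.0451). After SiREV1#1 its value ranged from -0.0733 to 0.130 and changed sign, to -0.0733 without Scramble replicate 2, -0.0355 without SiREV1#1 replicate 2 and -0.032 without SiREV1#1 replicate 3, and it passed in 0 of 17 alternatives. The cause of these changes was not tested. REV1 did not pass in 1 alternative, edgeR with no replicate block for SiREV1#2 (adjusted p = 0.154).

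The number of genes called over the whole table changed with the pairing and with the replicates kept. With no replicate block it fell from 2221 to 113 for SiREV1#1, from 1205 to 52 for SiREV1#2 and from 4375 to 584 between the siRNAs. With edgeR and no replicate block it was 42, 0 and 96, the 0 for SiREV1#2 standing beside 778 genes at an unadjusted p under 0.05. With the replicate block edgeR called 271 for SiREV1#2 and 2503 between the siRNAs. With replicates 2 and 3 only the counts were 6283, 6160 and 8418. Leaving out 1 library gave 702 (without Scramble replicate 3) to 4240 (without SiREV1#1 replicate 1) for SiREV1#1, 181 (without Scramble replicate 2) to 3831 (without SiREV1#1 replicate 1) for SiREV1#2, and 2033 (without SiREV1#2 replicate 3) to 6387 (without SiREV1#1 replicate 1) between the siRNAs. Depth limits YY2, whose silenced libraries with usable counts hold 19 to 64 reads. SiREV1#2 replicate 3 has no usable count.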
